A study of Homo sapiens with 8 samples.

Results

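The genes described here are the lysosomal hydrolases, membrane proteins and V-ATPase subunits, chosen by name: 30 listed symbols, and every protein-coding gene whose symbol begins with ATP6V0, ATP6V1 or ATP6AP. Of the 18478 genes in the authors' table, 54 met this rule, and every listed symbol was found. They are 21 hydrolases, 2 proteins that assist lipid breakdown (PSAP and NPC2), 5 membrane proteins, the transcription factors TFEB and TFE3, and 24 V-ATPase genes. The rule goes by symbol and uses no measured value, but it was written with earlier results of these data known.

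RNA was sequenced from C8161 and A2058, human melanoma cell lines, each grown in DMEM with serum and each transduced with retrovirus. In the cells called ATF3 cells here, the virus carried ATF3, a stress-inducible transcription factor, and the cells called neomycin cells are the matched neomycin controls. The groups are C8161 ATF3 cells (3 libraries), C8161 neomycin cells (3), A2058 ATF3 cells (1) and A2058 neomycin cells (1). Whether the 3 libraries of a C8161 arm go back to 1 transduction or several is not stated. The table holds RPKM, read counts scaled to transcript length and library size, in 1 column per group, and the C8161 columns are the authors' combined values over the arm, so there is no replicate spread and no test in any comparison below.

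Lysosomes are acidic compartments in which hydrolases break down proteins, glycans and lipids. The V-ATPase, a proton pump made of a membrane sector (V0) and a cytosolic ATP-splitting sector (V1), acidifies them, and heavily glycosylated membrane proteins line them. Many lysosomal genes carry an E-box called the CLEAR element, which TFEB and TFE3 bind, and in pigment cells MITF, a factor of the same family, also drives genes of melanosomes, organelles related to lysosomes.

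Promoter windows of RefSeq (GRCh38.p14), from 250 bases before to 50 after a gene's start, were matched for 40 of the 54 genes. The letters searched, on both strands, were TCACGTG (the E-box with 1 flanking base of the CLEAR element), CACGTG (the E-box alone, so that each flanked match is also an E-box match), TCATGTG (the M-box of MITF targets), TGACGTC (the core of the CRE, which ATF factors bind) and TGANTCA (the AP-1 site). TCACGTG stood in a window of 11 of the 40 genes (27.5%), against 6.19% of the 14364 genes of the table with a window. CACGTG stood in 12 of 40 (30%) against 11.4%, TCATGTG in 6 of 40 (15%) against 3.06%, and TGANTCA in 5 of 40 (12.5%) against 7.99%. TGACGTC was in none of the 40 genes' windows and in 5.81% of all. Genes with several starts have several windows. Counted by window, TCACGTG stood in 12 of 58 (20.7%) against 4.63% of 20561. These matches describe letters only.

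The 6 windows below are those of 4 genes far lower in C8161 than in A2058 (GPNMB, ATP6V0E2, CTSF and GAA) and of 2 that did not pass 2-fold between the lines (LAMP1 and MCOLN1). They are shown because both kinds carry E-boxes or M-boxes. Each is the 250 bases before the start, 5′ to 3′, and capitals mark the E-boxes, with the CLEAR flank where present, the M-boxes and the AP-1 sites, on either strand.
GPNMB (chr7:23246525-23246774, plus strand): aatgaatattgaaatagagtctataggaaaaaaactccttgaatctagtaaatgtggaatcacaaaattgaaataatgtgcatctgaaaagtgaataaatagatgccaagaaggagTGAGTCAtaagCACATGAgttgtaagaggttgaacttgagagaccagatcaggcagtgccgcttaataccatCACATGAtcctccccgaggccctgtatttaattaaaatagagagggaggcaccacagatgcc
ATP6V0E2 (chr7:149872714-149872963, plus strand): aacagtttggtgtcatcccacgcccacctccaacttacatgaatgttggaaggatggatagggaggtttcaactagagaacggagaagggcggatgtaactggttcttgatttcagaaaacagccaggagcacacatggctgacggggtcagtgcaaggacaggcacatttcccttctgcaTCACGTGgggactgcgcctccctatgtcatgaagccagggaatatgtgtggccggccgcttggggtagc
CTSF (chr11:66568607-66568856, minus strand): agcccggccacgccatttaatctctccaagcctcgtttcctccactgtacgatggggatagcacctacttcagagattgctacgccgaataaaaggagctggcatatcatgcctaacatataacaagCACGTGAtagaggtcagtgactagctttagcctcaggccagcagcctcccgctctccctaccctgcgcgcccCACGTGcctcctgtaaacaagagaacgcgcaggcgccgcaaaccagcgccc
GAA (chr17:80101331-80101580, plus strand): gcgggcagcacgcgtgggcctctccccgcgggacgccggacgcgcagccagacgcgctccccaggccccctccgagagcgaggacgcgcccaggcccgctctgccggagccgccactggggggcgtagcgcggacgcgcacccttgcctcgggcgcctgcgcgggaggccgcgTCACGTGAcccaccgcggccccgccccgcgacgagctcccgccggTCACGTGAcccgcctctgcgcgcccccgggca
LAMP1 (chr13:113296989-113297238, plus strand): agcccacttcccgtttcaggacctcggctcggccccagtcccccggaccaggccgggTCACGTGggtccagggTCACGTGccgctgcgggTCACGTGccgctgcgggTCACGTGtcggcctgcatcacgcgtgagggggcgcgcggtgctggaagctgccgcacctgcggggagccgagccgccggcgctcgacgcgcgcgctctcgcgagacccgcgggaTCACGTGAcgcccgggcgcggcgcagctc
MCOLN1 (chr19:7522374-7522623, plus strand): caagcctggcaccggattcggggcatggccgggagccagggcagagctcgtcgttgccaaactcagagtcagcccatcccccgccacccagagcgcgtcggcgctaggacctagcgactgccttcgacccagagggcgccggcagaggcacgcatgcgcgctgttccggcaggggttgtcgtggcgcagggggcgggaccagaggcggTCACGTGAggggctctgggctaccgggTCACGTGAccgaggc

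GPNMB carried a pair of M-boxes, in the reverse orientation, and an AP-1 site. GAA and MCOLN1 each carried 2 copies of the E-box flanked on both sides as in the CLEAR element, and LAMP1 carried 5 E-boxes before its start. Of the 9 genes lower in C8161 by 2-fold or more, a call described below, that have a window, 4 held TCACGTG (ATP6V0E2, ATP6V1G1, CTSF and GAA). ATP6V0D1, CTSA, CTSD and MCOLN1 hold TCACGTG as well, and each differed by less than 1.2-fold in RPKM between the lines in neomycin cells. The remaining holders ATP6V0B, LAMP1 and NEU1 were lower in C8161 neomycin cells, by 1.64-fold, 1.36-fold and 1.67-fold in RPKM. The part of these letters in the differences was not tested.

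The introduced gene was checked first. ATF3 was at 62.57 RPKM in C8161 ATF3 cells against 4.76 RPKM in C8161 neomycin cells, 13.1-fold higher, and at 4.71 RPKM in A2058 ATF3 cells against 1.22 RPKM in A2058 neomycin cells, 3.86-fold higher. Markers of the melanoma lineage were present in A2058 and low or near 0 in C8161. For C8161 these markers thus do not bear out the melanoma label, though the origin of the line was not tested. All 10 of them reached 1 RPKM in both A2058 columns, with sums of 1826 RPKM in A2058 ATF3 cells and 1769 RPKM in A2058 neomycin cells. In C8161 their sums were 5.16 RPKM in ATF3 cells and 5.26 RPKM in neomycin cells, most of it from S100A1, at 3.42 RPKM and 3.60 RPKM in C8161 ATF3 and neomycin cells against 205.00 RPKM and 192.93 RPKM in A2058 ATF3 and neomycin cells. MITF, near 1 RPKM in C8161, is described with the factors below. TYR was listed at 0 in both C8161 columns, and SOX10, PMEL, DCT and S100B lay under 0.2 RPKM. The 10 leukocyte markers summed to between 1.31 and 3.49 RPKM in the 4 columns, and CD163 was listed at 0 in all. The 6 fibroblast markers summed to 0.79 RPKM and 0.74 RPKM in C8161 ATF3 and neomycin cells, against 13.6 RPKM and 12.3 RPKM in A2058 ATF3 and neomycin cells, mostly from LUM and COL1A1. Of 4 keratinocyte markers, SFN was at 151.62 RPKM and 146.19 RPKM in C8161 ATF3 and neomycin cells, against 1.48 RPKM and 0.71 RPKM in A2058 ATF3 and neomycin cells, while KRT5, KRT14 and DSG3 lay at 0.36 RPKM or less in every column. The part of these differences in the results below was not tested.

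Between 10866 and 11753 genes reached 1 RPKM in a column, and column sums ran from 470633 to 481302 RPKM. Of the 54 lysosomal genes, 45 reached 1 RPKM in each C8161 column and 50 in each A2058 column. Together they made up 0.683% of all RPKM in C8161 ATF3 cells and 0.656% in C8161 neomycin cells, against 1.03% in A2058 ATF3 cells and 1.01% in A2058 neomycin cells. The lines differed more than the arms of either line. By class, membrane proteins took 0.182% and 0.161% in C8161 ATF3 and neomycin cells, against 0.310% and 0.303% in A2058 ATF3 and neomycin cells. V-ATPase genes took 0.213% and 0.205% in C8161 ATF3 and neomycin cells, against 0.315% and 0.307% in A2058 ATF3 and neomycin cells. Proteases took nearly the same share everywhere, from 0.149% to 0.158%.

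**Figure D1:**
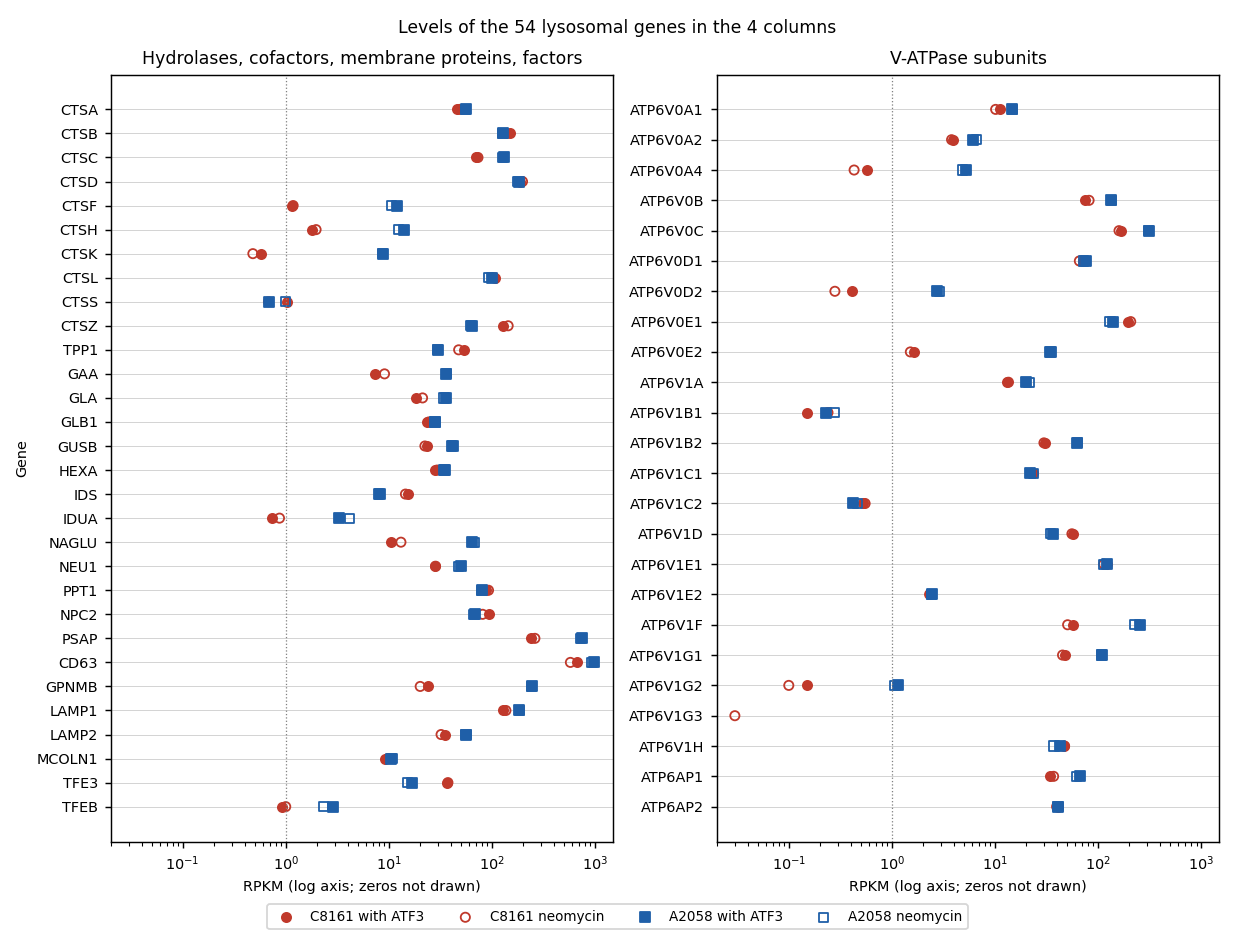
RPKM (log axis) of the 54 genes, 1 point per column: C8161 ATF3 cells (filled circles), C8161 neomycin cells (open circles), A2058 ATF3 cells (filled squares) and A2058 neomycin cells (open squares). Values listed at 0 are not drawn, and the dotted line is 1 RPKM. The 2 arms of a line lie close together for nearly every gene, while the lines stand apart for genes such as GPNMB, CTSK and ATP6V0E2.

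The comparison of C8161 with A2058 cells was made in each arm. A gene was compared where it reached 1 RPKM in at least 1 of the 2 columns, and was called where log2(RPKM + 1), C8161 minus A2058, was 1 or more in size, a 2-fold difference on that scale. In the neomycin arms 50 of the 54 genes were compared. Of these, 14 were lower in C8161 (28%), against 20.7% of the 12372 genes compared, and 2 were higher (4%), against 9.36%. In the ATF3 arms 51 were compared, and 14 were lower (27.5%, all genes 21.4%) and 2 higher (3.92%, all genes 9.92%). The median log2 ratio was −0.67 in the neomycin arms and −0.56 in the ATF3 arms, against −0.19 and −0.18 over all genes. After quantile normalization, which moved the median of all genes to 0.08 in the neomycin arms, 13 members were lower (all genes 15.1%) and 3 higher (all genes 13.6%), with a median of −0.37. Of the 50 genes compared in both arms, 13 were lower by 2-fold in both (26%, all genes 19.3%) and 2 higher (4%, all genes 8.8%), and 47 had the same sign in both, against 11477 of 12260 of all genes.

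Among genes with a mean of at least 10 RPKM, 8 of 40 lysosomal genes were lower in C8161 by 2-fold in the neomycin arms (20%, all genes 15.4%), and 2 were higher (5%, all genes 8.82%), with a median of −0.33 against −0.09. In the ATF3 arms 7 of 39 were lower (17.9%, all genes 16.8%) and 2 higher (5.13%, all genes 9.3%). Cell line cannot be told apart from any other difference between the columns, which for A2058 hold 1 library and for C8161 combine 3. A lower RPKM also cannot tell less RNA per cell from fewer cells with that RNA.

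**Figure D2:**
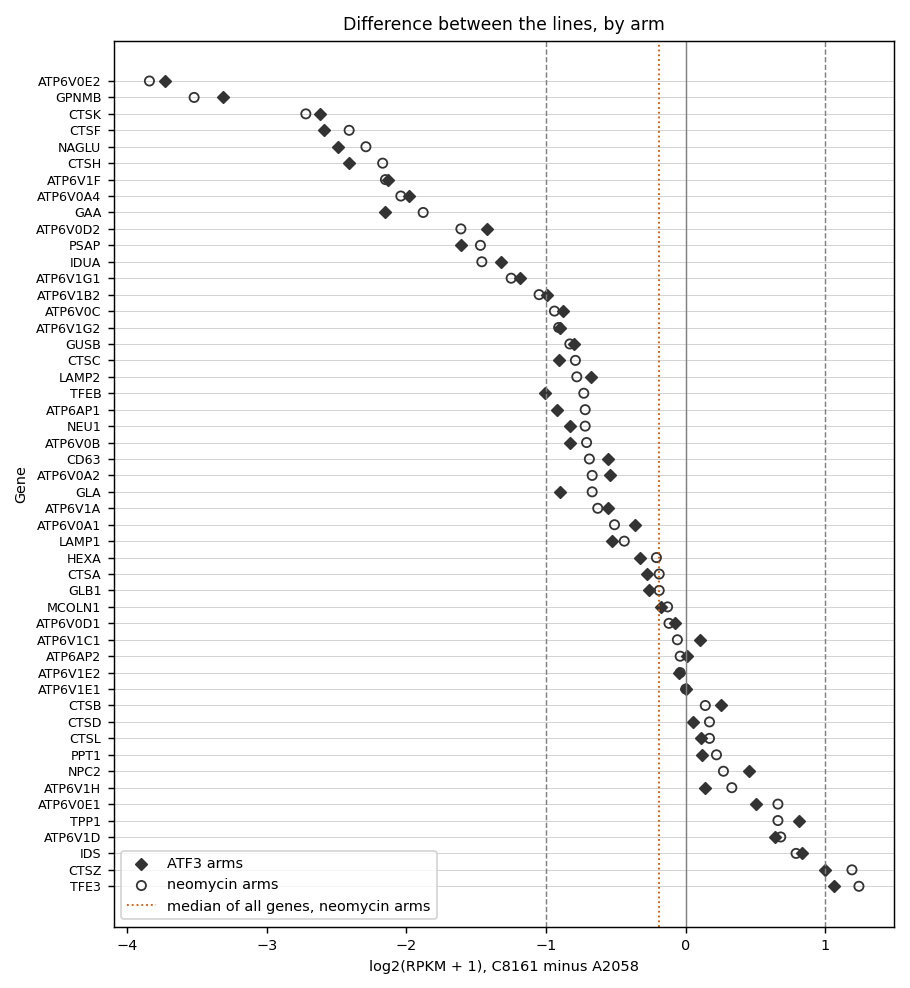
Difference in log2(RPKM + 1), C8161 minus A2058, for the 50 genes compared in both arms, as diamonds for the ATF3 arms and circles for the neomycin arms. Dashed lines mark a 2-fold difference, and the dotted line marks −0.19, the median of all genes in the neomycin arms. ATP6V0E2 and GPNMB lie furthest below 0, and CTSZ and TFE3 lie furthest above it, in both arms.

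Among the proteases, cathepsins F, H and K were low in C8161. CTSF, a cysteine protease, was at 1.16 RPKM in C8161 ATF3 cells and 1.18 RPKM in C8161 neomycin cells, against 11.98 RPKM in A2058 ATF3 cells and 10.61 RPKM in A2058 neomycin cells. CTSH, an aminopeptidase, was at 1.81 RPKM and 1.97 RPKM in C8161 ATF3 and neomycin cells, against 13.89 RPKM and 12.40 RPKM in A2058 ATF3 and neomycin cells. CTSK, the collagen-degrading cathepsin best known from osteoclasts, was at 0.58 RPKM and 0.48 RPKM in C8161 ATF3 and neomycin cells, against 8.69 RPKM and 8.74 RPKM in A2058 ATF3 and neomycin cells. In the neomycin arms RPKM was 8.99-fold lower in C8161 for CTSF, 6.29-fold for CTSH and 18.2-fold for CTSK.

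CTSZ, a carboxypeptidase also called cathepsin X, went the other way. It was at 128.95 RPKM in C8161 ATF3 cells and 143.58 RPKM in C8161 neomycin cells, against 63.95 RPKM in A2058 ATF3 cells and 62.28 RPKM in A2058 neomycin cells. It was the only protease past 2-fold higher in C8161, and at 2.02-fold in RPKM in the ATF3 arms it lay just past the limit. TPP1, a tripeptidyl peptidase whose loss causes a form of Batten disease, was at 53.80 RPKM and 47.54 RPKM in C8161 ATF3 and neomycin cells, against 30.25 RPKM and 29.70 RPKM in A2058 ATF3 and neomycin cells.

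The most abundant proteases differed less. CTSD, the main aspartic protease, lay between 176.04 and 197.83 RPKM in the 4 columns, CTSB between 126.05 and 150.40, and CTSL between 92.72 and 107.52. With GC and length trends removed, however, CTSD was higher in C8161, short of 2-fold. Its log2 ratio was then 0.69 in place of 0.17 in the neomycin arms, and 0.72 in place of 0.05 in the ATF3 arms. CTSA, which also protects the sialidase NEU1, lay between 46.11 and 56.22 RPKM. In CTSA, 28.5% of the exon bases lie under exons of other genes, most of all NEURL2 on the opposite strand. CTSC, which activates serine proteases of immune cells, was lower in C8161, at 69.37 RPKM and 73.18 RPKM in ATF3 and neomycin cells, against 131.34 RPKM and 127.36 RPKM in A2058 ATF3 and neomycin cells, short of 2-fold except in the ATF3 arms with GC and length trends removed (−1.18). CTSS, the cathepsin of antigen-presenting cells, stayed at 1.04 RPKM or less in all 4. Of the CTSD transcript, 60.6% of the 50-base stretches also occur in other genes, most of all in an overlapping read-through record, so its value is uncertain.

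Of the 10 glycan and lipid hydrolases, 8 were below 0 between the lines in the neomycin arms, with a median of −0.69, and 3 of them passed 2-fold. Over all genes 59.3% were below 0 and 20.7% were lower by 2-fold, with a median of −0.19. NAGLU, which removes N-acetylglucosamine from heparan sulfate, was at 10.53 RPKM in C8161 ATF3 cells and 13.10 RPKM in C8161 neomycin cells, against 63.75 RPKM in A2058 ATF3 cells and 67.96 RPKM in A2058 neomycin cells. GAA, the acid glucosidase that digests glycogen, was at 7.29 RPKM and 9.08 RPKM in C8161 ATF3 and neomycin cells, against 35.92 RPKM and 36.06 RPKM in A2058 ATF3 and neomycin cells. IDUA, the iduronidase of heparan and dermatan sulfate, was at 0.73 RPKM and 0.87 RPKM in C8161 ATF3 and neomycin cells, against 3.31 RPKM and 4.16 RPKM in A2058 ATF3 and neomycin cells. Neomycin-arm RPKM was 5.19-fold lower in C8161 for NAGLU, 3.97-fold for GAA and 4.78-fold for IDUA.

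These 3 are GC-rich, with 64.4%, 64.1% and 69.3% GC in NAGLU, GAA and IDUA, and the ratio between the lines varied with GC content over all genes (Spearman's rho −0.27 over 12239 genes in the neomycin arms, genes not being independent). Once trends with GC content and transcript length were taken out, the neomycin-arm log2 ratios were −1.74 in place of −2.29 for NAGLU, −1.36 in place of −1.88 for GAA, and −0.64 in place of −1.46 for IDUA, which no longer passed 2-fold.

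GLA, GUSB, NEU1, HEXA and GLB1, which act on galactosides, glucuronides, sialic acids, hexosaminides and beta-galactosides, were also lower in C8161, with neomycin-arm log2 ratios from −0.83 (GUSB) to −0.19 (GLB1). The exceptions were IDS and PPT1. IDS, the iduronate sulfatase, was at 15.45 RPKM and 14.49 RPKM in C8161 ATF3 and neomycin cells, against 8.26 RPKM and 7.96 RPKM in A2058 ATF3 and neomycin cells, and passed 2-fold only after quantile normalization (1.05 in both arms) and, in the ATF3 arms, after centring (1.01). PPT1, which removes palmitate from proteins, lay between 79.35 and 92.60 RPKM in the 4 columns. Of the IDS 50-base stretches, 22.9% also occur in other genes. In PPT1, 23.4% of the exon bases lie under exons of other genes, most of all CAP1 on the opposite strand.

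Of the proteins that assist lipid breakdown, PSAP is the precursor of the saposins, which present sphingolipids to their hydrolases. It was at 241.71 RPKM in C8161 ATF3 cells and 260.86 RPKM in C8161 neomycin cells, against 741.47 RPKM in A2058 ATF3 cells and 722.29 RPKM in A2058 neomycin cells. It was 2.77-fold lower in C8161 in the neomycin arms and 3.07-fold lower in the ATF3 arms. NPC2, which hands cholesterol to NPC1, was higher in C8161, at 94.62 RPKM and 81.16 RPKM in ATF3 and neomycin cells, against 68.78 RPKM and 67.02 RPKM in A2058 ATF3 and neomycin cells.

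All 5 membrane proteins were below 0 between the lines in both arms, and GPNMB was furthest. MCOLN1, however, was above 0 in the neomycin arms after quantile normalization (0.10), centring (0.06) and removal of GC and length trends (0.29). In the ATF3 arms MCOLN1 was above 0 after quantile normalization (0.04) and trend removal (0.37). GPNMB, a glycoprotein of melanosomes and lysosomes (GRCh38.p14 chromosome 7, 23246775 to 23275108), was at 23.85 RPKM in C8161 ATF3 cells and 20.14 RPKM in C8161 neomycin cells, against 245.71 RPKM in A2058 ATF3 cells and 241.70 RPKM in A2058 neomycin cells. It was 12.0-fold lower in C8161 in the neomycin arms and 10.3-fold lower in the ATF3 arms. CD63, a tetraspanin of late endosomes and exosomes and the most abundant of the 54 genes, was at 663.04 RPKM and 576.36 RPKM in C8161 ATF3 and neomycin cells, against 977.64 RPKM and 931.88 RPKM in A2058 ATF3 and neomycin cells.

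The structural proteins of the lysosomal membrane differed less. LAMP1 was at 127.49 RPKM and 136.54 RPKM in C8161 ATF3 and neomycin cells, against 184.59 RPKM and 185.92 RPKM in A2058 ATF3 and neomycin cells. LAMP2, also the receptor of chaperone-mediated autophagy, was at 34.68 RPKM and 32.09 RPKM in C8161 ATF3 and neomycin cells, against 56.30 RPKM and 55.91 RPKM in A2058 ATF3 and neomycin cells. Neither passed 2-fold, although LAMP2 passed it (−1.06 in the neomycin arms) with the trends removed. MCOLN1, the calcium channel of lysosomes, lay between 9.19 and 10.83 RPKM in the 4 columns.

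The transcription factors that bind CLEAR elements differed in opposite directions. TFE3 was at 36.48 RPKM in C8161 ATF3 cells and 37.41 RPKM in C8161 neomycin cells, against 16.96 RPKM in A2058 ATF3 cells and 15.26 RPKM in A2058 neomycin cells, 2.45-fold higher in C8161 in the neomycin arms. TFEB was at 0.92 RPKM and 1 RPKM in C8161 ATF3 and neomycin cells, against 2.87 RPKM and 2.31 RPKM in A2058 ATF3 and neomycin cells, and was past 2-fold lower in C8161 in the ATF3 arms (−1.01) but not in the neomycin arms (−0.73). The call of TFEB in the ATF3 arms was lost after quantile normalization (−0.54), centring (−0.83) and trend removal (−0.70), and with a pseudocount of 0.1 it passed in the neomycin arms (−1.13). Their relative MITF, which is not among the 54, was at 1.02 RPKM and 0.95 RPKM in C8161 ATF3 and neomycin cells, against 51.86 RPKM and 54.02 RPKM in A2058 ATF3 and neomycin cells. The MITF difference ran with the lineage markers described above and with the lower lysosomal genes in C8161. With 2 lines, its part in the lysosomal differences was not tested.

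**Figure D3:**
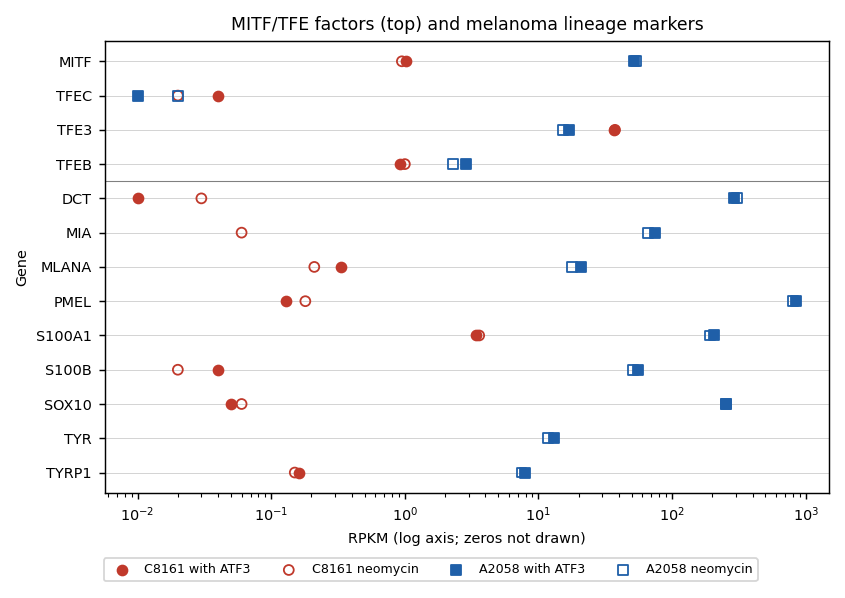
RPKM (log axis) of the MITF/TFE factors (above the line) and of melanoma lineage markers (below it) in the 4 columns, drawn as in the plot of levels, with values listed at 0 left out. MITF and the lineage markers lie far lower in C8161, whereas TFE3 lies at 36.48 and 37.41 RPKM in C8161 ATF3 and neomycin cells against 16.96 and 15.26 RPKM in A2058 ATF3 and neomycin cells.

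Of the 24 V-ATPase genes, 21 were compared between the lines in the neomycin arms. Of these, 17 were below 0, with a median of −0.67, and 6 were lower in C8161 by 2-fold (28.6%, all genes 20.7%). None was higher by 2-fold (all genes 9.36%), and over all genes 59.3% were below 0, with a median of −0.19. ATP6V0D1, ATP6V1C1, ATP6V1E2 and ATP6AP2, between −0.12 and −0.04, lay above 0 after centring. The core subunits for which the table holds a single gene did not move together. ATP6V1F, a small subunit of the central stalk, was at 57.22 RPKM in C8161 ATF3 cells and 50.58 RPKM in C8161 neomycin cells, against 253.49 RPKM in A2058 ATF3 cells and 227.79 RPKM in A2058 neomycin cells. ATP6V1D, its partner in the stalk, was higher in C8161, at 57.64 RPKM and 55.68 RPKM in ATF3 and neomycin cells, against 36.66 RPKM and 34.33 RPKM in A2058 ATF3 and neomycin cells. In ATP6V1F, 23.7% of the exon bases lie under exons of other genes, most of all KCP on the opposite strand. The authors' strand setting is not given in the sources used here.

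ATP6V1A, the catalytic subunit, was at 13.20 RPKM and 13.51 RPKM in C8161 ATF3 and neomycin cells, against 19.87 RPKM and 21.38 RPKM in A2058 ATF3 and neomycin cells. ATP6V1H, a regulatory subunit, was at 46.76 RPKM and 47.29 RPKM in C8161 ATF3 and neomycin cells, against 42.42 RPKM and 37.29 RPKM in A2058 ATF3 and neomycin cells. Neither of these core subunits passed 2-fold. In the membrane sector, ATP6V0C, the main proton-carrying ring subunit, was at 167.77 RPKM and 159.46 RPKM in C8161 ATF3 and neomycin cells, against 309.37 RPKM and 306.82 RPKM in A2058 ATF3 and neomycin cells. Its ring partner ATP6V0B was lower in C8161 as well, at 74.63 RPKM and 81.70 RPKM in ATF3 and neomycin cells, against 133.88 RPKM and 134.34 RPKM in A2058 ATF3 and neomycin cells. Neither ring gene passed 2-fold, except ATP6V0C in the neomycin arms after quantile normalization (−1.03). With GC and length trends removed, the log2 ratios of ATP6V0C were −0.47 in place of −0.94 in the neomycin arms and −0.24 in place of −0.88 in the ATF3 arms. Those of ATP6V0B were −0.51 in place of −0.71 and −0.57 in place of −0.83. Of the ATP6V0C transcript, 87.3% is shared with other genes, most of all a read-through record, so that its value is uncertain.

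The accessory proteins help assemble the pump. ATP6AP1 was at 34.47 RPKM and 37.01 RPKM in C8161 ATF3 and neomycin cells, against 66.00 RPKM and 61.78 RPKM in A2058 ATF3 and neomycin cells. ATP6AP2, also called the prorenin receptor, lay between 39.58 and 41.02 RPKM in all 4.

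Several subunits are encoded by more than 1 gene, of which usually 1 is used everywhere and the others in particular tissues. ATP6V0E2 (GRCh38.p14 chromosome 7, 149872964 to 149880713), the less common gene for subunit e, was at 1.62 RPKM in C8161 ATF3 cells and 1.51 RPKM in C8161 neomycin cells, against 33.80 RPKM in A2058 ATF3 cells and 34.85 RPKM in A2058 neomycin cells. This was the largest difference between the lines among the 54 genes, with RPKM 23.1-fold lower in C8161 in the neomycin arms. The common gene ATP6V0E1 ran the other way, at 196.90 RPKM and 206.98 RPKM in C8161 ATF3 and neomycin cells, against 139.25 RPKM and 130.62 RPKM in A2058 ATF3 and neomycin cells. ATP6V0E2 thus gave 0.816% and 0.724% of the subunit's RPKM in C8161 ATF3 and neomycin cells, against 19.5% and 21.1% in A2058 ATF3 and neomycin cells. Of the ATP6V0E2 exon bases, 19.7% overlap exons of other genes, most of all its antisense gene on the opposite strand. Of its 50-base stretches, 12.1% also occur in other genes.

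ATP6V0A4, the subunit a gene of kidney and inner ear, was at 0.57 RPKM and 0.43 RPKM in C8161 ATF3 and neomycin cells, against 5.18 RPKM and 4.87 RPKM in A2058 ATF3 and neomycin cells. ATP6V0D2, the subunit d gene of kidney and osteoclasts, was at 0.41 RPKM and 0.28 RPKM in C8161 ATF3 and neomycin cells, against 2.76 RPKM and 2.91 RPKM in A2058 ATF3 and neomycin cells. Both were above 1 RPKM in A2058 and below it in C8161. Their shares of the subunit stayed small even in A2058, at 8.70% and 8.47% for ATP6V0A4 in ATF3 and neomycin cells and 3.51% and 3.90% for ATP6V0D2. TCIRG1, the subunit a gene of osteoclasts, not among the 54, had the largest share of subunit a in each column, between 44.7% and 56.4%. Of 5 osteoclast markers, ACP5 and NFATC1 reached 1 RPKM in A2058, and CALCR, DCSTAMP and OCSTAMP lay at 0.05 RPKM or less in every column.

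**Figure D4:**
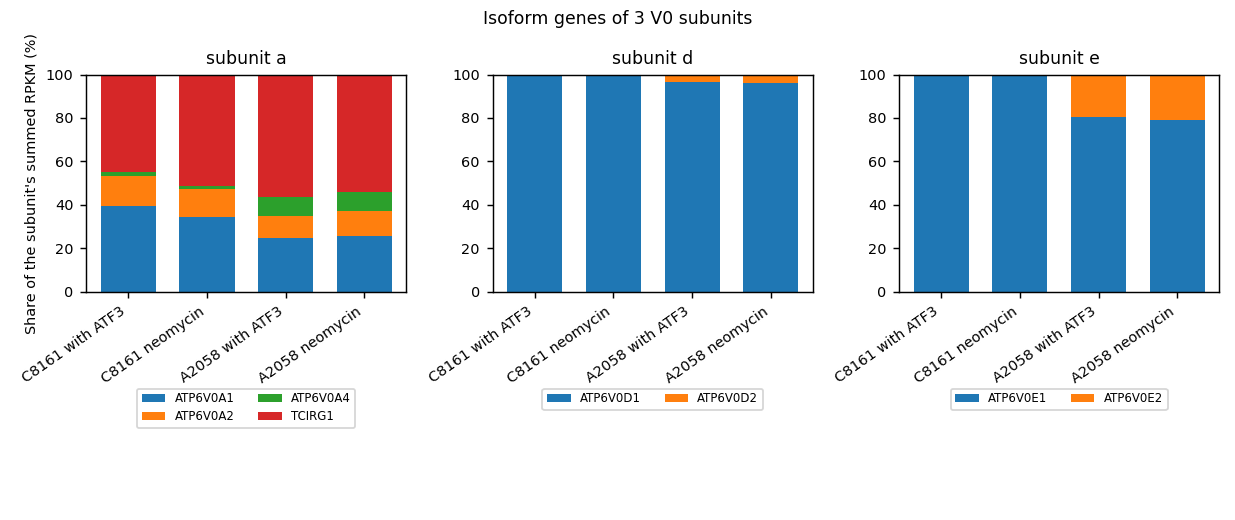
Share (%) of the summed RPKM of subunits a, d and e of the V0 sector given by each gene, in C8161 ATF3 cells, C8161 neomycin cells, A2058 ATF3 cells and A2058 neomycin cells. The share of ATP6V0E2 is 0.816% and 0.724% in C8161 ATF3 and neomycin cells, against 19.5% and 21.1% in A2058 ATF3 and neomycin cells.

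For subunits B, C, E and G of the V1 sector, 1 gene gave nearly all RPKM in every column. ATP6V1B2 gave at least 99.2% of subunit B, ATP6V1C1 at least 97.6% of C, ATP6V1E1 at least 97.9% of E and ATP6V1G1 at least 99.0% of G. Of these, ATP6V1G1 and ATP6V1B2 were lower in C8161. ATP6V1G1 was at 47.69 RPKM and 45.17 RPKM in C8161 ATF3 and neomycin cells, against 110.08 RPKM and 108.54 RPKM in A2058 ATF3 and neomycin cells. ATP6V1B2 was at 30.54 RPKM and 29.82 RPKM in C8161 ATF3 and neomycin cells, against 61.71 RPKM and 62.79 RPKM in A2058 ATF3 and neomycin cells, and passed 2-fold in the neomycin arms (−1.05) but not in the ATF3 arms (−0.99). ATP6V1B2 passed in both arms with GC and length trends removed (−1.18 in the neomycin arms and −1.23 in the ATF3 arms), and not in the neomycin arms after quantile normalization (−0.97) or centring (−0.86). With a pseudocount of 0.1, ATP6V1B2 passed in the ATF3 arms too (−1.01). ATP6V1E1 was at 121.26 RPKM and 113.47 RPKM in C8161 ATF3 and neomycin cells, against 121.34 RPKM and 113.34 RPKM in A2058 ATF3 and neomycin cells. ATP6V1G3, a kidney gene, was listed at 0 in all columns but C8161 neomycin cells, where it was at 0.03 RPKM.

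The comparisons of ATF3 with neomycin cells ask whether introduced ATF3 went with a change in these genes. A gene was called where log2(RPKM + 1), ATF3 minus neomycin, was past 1.2-fold (0.263 or more in size). In C8161, 46 of the 54 genes were compared, of which 1 was higher (2.17%, all genes 2.19%) and 2 were lower (4.35%, all genes 2.71%). In A2058, 50 were compared and none passed 1.2-fold in either direction, against 2.02% of all genes higher and 1.51% lower. Among genes with a mean of at least 10 RPKM, none of 37 was higher (all genes 1.78%) and 1 was lower (2.7%, all genes 3.11%) in C8161, and none of 41 was higher (all genes 0.49%) or lower (all genes 0.138%) in A2058. With GC and length trends removed, 1 gene, CD63 in place of CTSS, was higher (all genes 2.76%) and none lower (all genes 0.838%) in C8161. The counts in both lines are near those of all genes, and none of the 45 compared in both lines passed in the same direction in both, against 19 of 10331 over all genes. The median log2 ratio was −0.01 in C8161 (all genes 0.01) and 0.03 in A2058 (all genes 0.00).

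The lower genes in C8161 were NAGLU and GAA, whose values stand above. NAGLU had a log2 ratio of −0.29 and GAA of −0.28, and RPKM was 0.804 and 0.803 times that of neomycin cells. In A2058 their log2 ratios were −0.09 and −0.01. Over all genes the C8161 ratio was lower at higher GC content (Spearman's rho −0.42 over 10861 genes), and with the trends taken out the ratios of NAGLU and GAA were −0.14 and −0.15, so that neither passed. The higher gene was CTSS, at 1.04 RPKM in C8161 ATF3 cells against 0.68 RPKM in C8161 neomycin cells, with a log2 ratio of 0.28 at a level close to the minimum, and 0.23 with the trends taken out, short of 1.2-fold. In A2058, CTSS ran the other way under that minimum, at 0.69 RPKM in ATF3 cells against 0.99 RPKM in neomycin cells.

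By sign, whatever their size, differences of the hydrolases in C8161 were mostly negative and those of the V-ATPase mostly positive. Of 19 hydrolases compared, NAGLU, GAA and CTSS included, 13 were below 0 (all genes 47.3%) with a median of −0.07, which was −0.02 with the GC and length trends removed, when CTSA, CTSD and CTSF lay above 0. Of 18 V-ATPase genes compared, 12 were above 0 (all genes 52%) with a median of 0.05, which was 0.01 after removal. Of the other genes, GPNMB had a log2 ratio of 0.23 (20.14 RPKM in neomycin cells), NPC2 of 0.22 and CD63 of 0.20. With the trends removed these were 0.21 for GPNMB, 0.21 for NPC2 and 0.27 for CD63, the last past 1.2-fold.

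In A2058, 36 of the 50 genes compared were above 0 (72%), against 51.3% of all genes. Among genes with a mean of at least 10 RPKM, 31 of 41 were above 0 (75.6%, all genes 54.5%). With GC and length trends removed the median of the members was 0.02 in place of 0.03. GLB1, ATP6V0C and ATP6V1E2 then lay below 0, and ATP6V1B2 above it. The central 90% of the members ran from −0.09 to 0.16, and that of all genes from −0.17 to 0.19. At a mean of at least 10 RPKM it ran from −0.09 to 0.15 for members and from −0.12 to 0.14 for all genes. Hydrolases were above 0 in 16 of 20, with a median of 0.04, which was 0.02 with the trends removed. TFEB was nearest to a higher call, at 2.87 RPKM in ATF3 cells against 2.31 RPKM in neomycin cells (0.23), and IDUA nearest to a lower one, at 3.31 RPKM in ATF3 cells against 4.16 RPKM in neomycin cells (−0.26), and both lay outside the central 90% of all genes. TFEB passed 1.2-fold with a pseudocount of 0.1 (0.30), as did IDUA (−0.32), which also passed after quantile normalization, centring and trend removal. ATP6V1H, at 42.42 RPKM in ATF3 cells against 37.29 RPKM in neomycin cells (0.18), and ATP6V1F, at 253.49 RPKM in ATF3 cells against 227.79 RPKM in neomycin cells (0.15), led the V-ATPase genes. ATP6V1F was also the highest V-ATPase gene in C8161 (0.17).

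Between the 2 lines, which share no column here, 22 of the 45 genes compared in both had the same sign (48.9%), against 47.4% of all genes. Of the 45, 16 were above 0 and 6 below 0 in both, and 17 were below 0 in C8161 and above 0 in A2058.

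**Figure D5:**
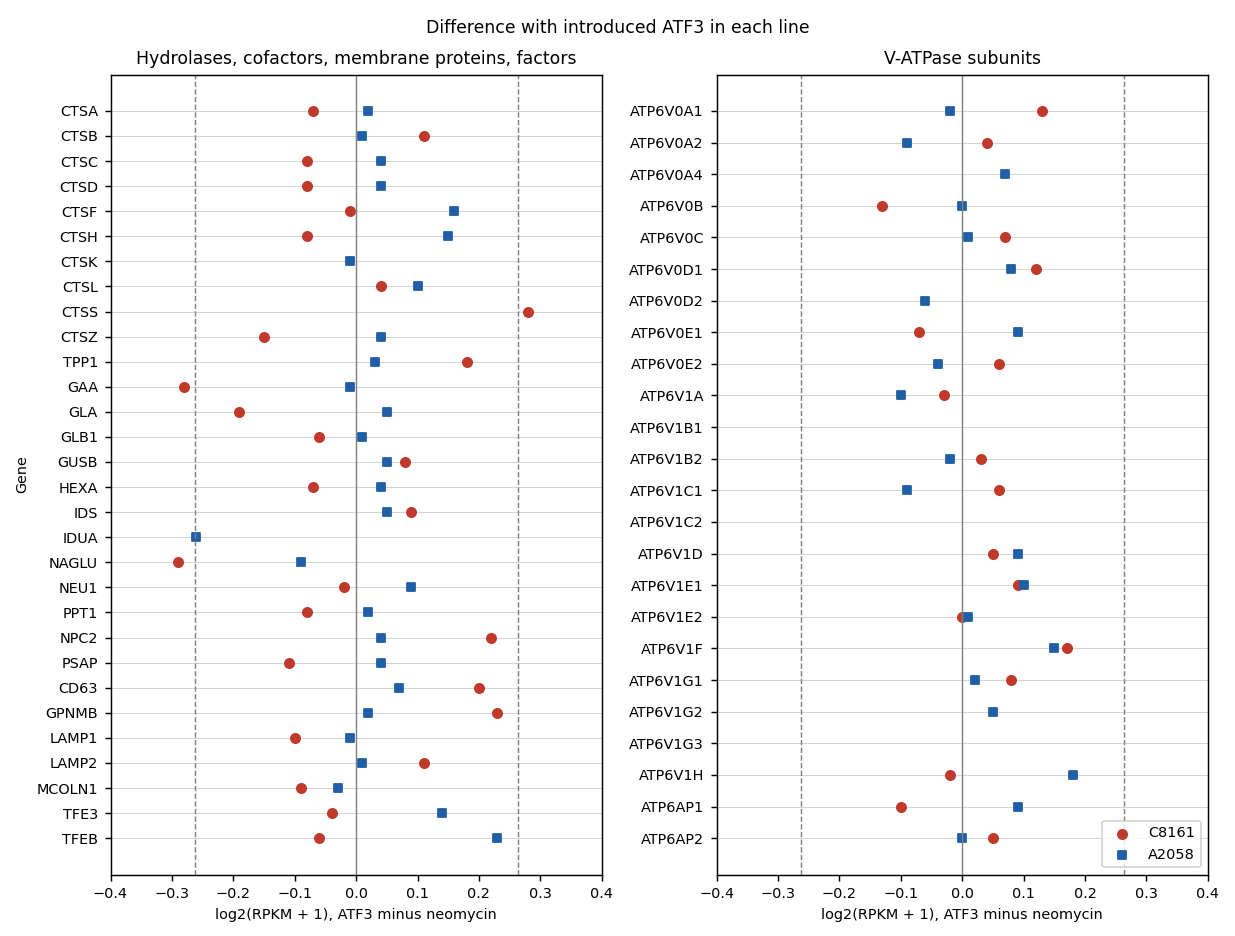
Difference in log2(RPKM + 1), ATF3 minus neomycin, of each gene in C8161 (circles) and A2058 (squares). Dashed lines mark 1.2-fold, and a missing point is a gene under 1 RPKM in both columns of that line. NAGLU and GAA lie below the lower line and CTSS above the upper line in C8161, and no A2058 point lies outside.

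Other genes of the pathway were taken from 7 lists. Beside the counts below, 2.19% of all genes compared in C8161 were higher past 1.2-fold and 2.71% lower. Of 32 further lysosomal hydrolases, 29 were compared in C8161, with 1 lower past 1.2-fold and none higher (median −0.05). The lower one was ARSA, arylsulfatase A, at 6.53 RPKM in ATF3 cells against 8.06 RPKM in neomycin cells (−0.27, and −0.10 with the trends removed). Of 23 further membrane proteins compared, 1 was higher and 1 lower (median 0.02). The higher one was CD68, at 37.58 RPKM in ATF3 cells against 29.03 RPKM in neomycin cells (0.36). But 92.6% of its transcript occurs in other genes, most of all a read-through record. The lower one was TMEM175, a potassium and proton channel, at 3.67 RPKM in ATF3 cells against 4.77 RPKM in neomycin cells (−0.31, and −0.16 with the trends removed).

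Of 20 autophagy genes compared in C8161, 1 was higher past 1.2-fold (all genes 2.19%) and none lower (all genes 2.71%). GABARAPL1, an autophagosome protein of the ATG8 family, was at 20.19 RPKM in C8161 ATF3 cells against 15.09 RPKM in C8161 neomycin cells (0.40, and 0.38 with the trends removed). In A2058 it was at 17.58 RPKM in ATF3 cells against 15.40 RPKM in neomycin cells (0.18). None of the 15 genes of sorting to the lysosome, 19 regulators, 9 V-ATPase partners and 6 activators and inhibitors compared in C8161 passed. No gene of the 7 lists passed in A2058, where 2.02% of all genes were higher and 1.51% lower.

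Between the lines in neomycin cells, 20.7% of all genes were lower in C8161 by 2-fold and 9.36% higher, with a median of −0.19. The further hydrolases had a median of −0.68, with 12 of 32 lower and 1 higher. Of those lower, ACP2 (−0.83), ARSA (−0.67), DNASE2 (−0.86) and DPP7 (−0.63) fell short of 2-fold with GC and length trends removed. Over all genes 18.2% were then lower. ASAH1, acid ceramidase, was at 6.02 RPKM and 6.36 RPKM in C8161 ATF3 and neomycin cells, against 58.80 RPKM and 52.49 RPKM in A2058 ATF3 and neomycin cells. GALC, galactosylceramidase, was listed at 0 in both C8161 columns and was at 3.14 RPKM and 3.25 RPKM in A2058 ATF3 and neomycin cells. Both were named after their values were seen. The further membrane proteins had a median of −0.32 (6 of 23 lower, 1 higher), the sorting genes −0.34 (4 of 15 lower, none higher), the V-ATPase partners −0.91 (2 of 9 lower, none higher), the regulators −0.21 (5 of 19 lower, 1 higher), the activators and inhibitors −0.25 (none of 6) and the autophagy genes −0.03 (3 of 21 lower, 1 higher). With the trends removed, SCARB2 (−1.80) was the only one of the lower membrane proteins still past 2-fold. GGA1 (−0.85) of the sorting genes, and ATG9A (−0.80) and MAP1LC3A (−0.53) of the autophagy genes, then fell short as well. SORT1, the sorting receptor sortilin, was at 4.06 RPKM and 3.67 RPKM in C8161 ATF3 and neomycin cells, against 26.84 RPKM and 27.62 RPKM in A2058 ATF3 and neomycin cells. WIPI1, an autophagy protein, was at 10.74 RPKM and 8.79 RPKM in C8161 ATF3 and neomycin cells, against 51.64 RPKM and 51.42 RPKM in A2058 ATF3 and neomycin cells.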

How the data were processed

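RNA-seq of 8 libraries was summarised by the authors in 1 table of 18478 Entrez genes, deposited as RPKM per the file headers. Bowtie2, RSEM and hg38 are named, without versions, per the submitters' processing notes; for annotation, filters and strand setting no source used here gives any. The C8161 columns are deposited as combined values of an arm, so limma, intended if libraries had values, could not be run, and sizes of difference were described instead. At low values, 32.8% and 31.1% of the A2058 ATF3 and neomycin values gave whole reads within 0.1 at the best step, and 13.6% and 13.7% of the C8161 ATF3 and neomycin values, so no counts were recovered and depth is treated as unknown.

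Symbols and coordinates came from RefSeq (GRCh38.p14), matched on Entrez identifier for 18156 genes. GC content and length came from the longest GENCODE 29 transcript (17850 genes, all 54 members), and trends were removed with lowess (fraction 0.3; statsmodels 0.14.6). Ratios used log2(RPKM + 1) over genes reaching 1 RPKM in 1 of the 2 columns, in Python 3.11.15. They were also run on simulated columns with counting noise at an assumed depth. Those columns hold no variation between libraries, so they do not show how far the calls here can be relied on. In the lists, 2 of 11 V-ATPase partners matched no row by symbol. Members, lists and folds were chosen with earlier results of these data known. Values in all columns are given for members past 1.2-fold with ATF3 at a mean of at least 2 RPKM, the 10 of largest ratio between lines, the 5 most abundant and genes of multi-gene subunits, and for others where they complete a group; list genes are taken from up to 4 of largest ratio in C8161. Alternatives were the pseudocount, minimum level, quantile normalization, centring, trend removal, shared sequence and the fold.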

Additional observations from a re-analysis of the deposited data

Results flagged for a closer look

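TFEB had a log2 ratio, ATF3 minus neomycin, of 0.23 in A2058 and of −0.06 in C8161. It was the single gene of the 45 compared in both lines whose ratios had opposite signs and lay more than 1.2-fold apart (difference 0.28). The share of all genes that meet this rule is not given here, so the flag has no background beside it. With GC and length trends removed, TFEB was at 0.21 in A2058 and 0.02 in C8161, so that the signs were no longer opposite. Each line gives 1 value per arm, so the difference was not tested. TFEB lay between 0.92 and 2.87 RPKM in the 4 columns, where the scale understates differences.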

How the results depend on the processing

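No paired analysis was possible because the replicate numbers of the C8161 libraries have no columns of their own, and for the same reason no library could be left out. For C8161 ATF3 against neomycin cells, the count of genes higher past 1.2-fold was 1; it was 0 with a minimum of 5 RPKM, 2 after quantile normalization, 6 at 1.1-fold and 0 at 1.5-fold. The count lower was 2; it was 0 with GC and length trends removed, 4 at 1.1-fold and 0 at 1.5-fold. That removal took the calls over all genes from 2.19% higher and 2.71% lower to 2.76% higher and 0.838% lower. At 1.1-fold, 12.7% of all genes were higher and 14.1% lower, and at 1.5-fold 0.11% and 0.0457%. Of all genes, 2.1% were higher with a minimum of 5 RPKM and 1.81% after quantile normalization. For A2058 the counts of 0 became 1 higher and 1 lower with a pseudocount of 0.1 (all genes 3.86% and 3.27%). The count lower was also 1 after quantile normalization (all genes 1.55%), centring (all genes 1.58%) or trend removal (all genes 1.45%). At 1.1-fold, 6 of 50 were higher and 1 lower in A2058, against 9.48% and 7.99% of all genes.

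Between the lines in neomycin cells, the median of −0.67 was −0.57 with no minimum or a minimum of 5 RPKM, −0.37 after quantile normalization, −0.48 after centring and −0.50 after trend removal. In ATF3 cells the median of −0.56 was −0.44 after quantile normalization, −0.37 after centring and −0.36 after trend removal. At 1.5-fold, 6 of 50 were higher and 27 lower in neomycin cells (all genes 17.5% and 33%). In ATF3 cells 5 of 51 were higher and 24 lower (all genes 18.1% and 33.6%). At 4-fold, 0 were higher and 8 lower in both. Over all genes these were 3.31% and 7.16% in neomycin cells and 3.3% and 7.28% in ATF3 cells. Quantile normalization moved the median of all genes from −0.19 to 0.08 in neomycin cells, with 13.6% higher and 15.1% lower against 9.36% and 20.7%, and from −0.18 to 0.10 in ATF3 cells, with 14.3% higher and 15.6% lower against 9.92% and 21.4%. Over the 51 members compared anywhere, 1312 of 1344 values of single genes kept their call and 32 changed it. No value past its fold changed sign, but 39 values of 18 members, none of them past its fold before the change of setting, did. The cause of these changes was not tested. Depth is unknown, and without replicates no spread limits these values.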
